A study of Mus musculus with 5 samples.

Results

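The genes described are 36 members of the type I interferon response and of antigen processing, chosen by symbol from the 29495 genes of each count table, and all 36 had a row in every table. They were read in mouse glioma cells of the genotype p53-/-;NF1-/-;tdTomato+/-, which arose in mice of mixed CD-1 and C57BL/6 stock and were grown with olfactory bulb neurons of C57BL/6 pups. The glioma cells were sorted away from the neurons on the red fluorescent protein tdTomato before RNA was taken. The groups were 3 libraries of co-cultured cells kept overnight with IGF-1, insulin-like growth factor 1, at 20 ng/mL (numbered 3, 4 and 5) and 2 libraries of co-cultured cells without it (control replicates 1 and 2). All 5 libraries shared the genotype and the neuronal co-culture. The media of the neurons held serum and, at plating, insulin, and the labels do not give the number of tumors behind the cells. Whether each library came from its own culture or animal is not in the labels, so the p-values rest on the spread among the 5 libraries, which may be technical.

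Type I interferons are secreted cytokines that cells make when sensors such as MDA5 meet viral RNA. They bind a receptor on the same or neighbouring cells, and its kinases bring STAT2 and IRF9 together in a complex that enters the nucleus. The complex binds the interferon-stimulated response element, a DNA sequence in the promoters of interferon-stimulated genes, whose products block viral replication and load peptides onto MHC class I for display to T cells. Many of these genes also keep a low level of transcription in cells that have met no virus.

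To show where the interferon factors can act, promoters of members were read from RefSeq (build GRCm38.p6), from 250 bases before to 50 bases after the transcription start. Of the 36 members 28 had an entry, with 31 promoters. The core of the response element, GAAA and GAAA with NN between them, was searched on both strands, and overlapping matches were kept. It was found in 11 of 28 members (39.3%) and in 3.99% of 27025 genes of the table. The letters TTCNNNGAA, which read the same on both strands and are those of the gamma-activated site, another element of interferon-induced promoters, were found in 7 of 28 members (25%) and in 9.55% of all genes. A match is a string of letters and not a measured binding site, and no match says only that these letters are not in this window.

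The 4 promoters below are shown because they belong to the gene that passed the test (Irf1), to a gene with overlapping response elements (Isg15), and to a pair of neighbouring copies whose reads can be shared (Ifit3 and Ifit3b). Capitals mark the matches to the response element core or, in Irf1, to TTCNNNGAA. They lie at chr11:53769764-53770063 on the plus strand, chr4:156200769-156201068 on the minus strand, chr19:34583279-34583578 on the plus strand and chr19:34607707-34608006 on the plus strand, all in GRCm38.p6 and written 5′ to 3′.
Irf1: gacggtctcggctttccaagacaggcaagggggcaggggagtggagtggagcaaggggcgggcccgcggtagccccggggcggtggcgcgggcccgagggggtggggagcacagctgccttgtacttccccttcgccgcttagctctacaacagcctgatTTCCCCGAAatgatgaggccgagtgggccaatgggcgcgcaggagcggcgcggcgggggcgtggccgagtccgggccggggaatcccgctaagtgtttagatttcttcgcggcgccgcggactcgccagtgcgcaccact
Isg15: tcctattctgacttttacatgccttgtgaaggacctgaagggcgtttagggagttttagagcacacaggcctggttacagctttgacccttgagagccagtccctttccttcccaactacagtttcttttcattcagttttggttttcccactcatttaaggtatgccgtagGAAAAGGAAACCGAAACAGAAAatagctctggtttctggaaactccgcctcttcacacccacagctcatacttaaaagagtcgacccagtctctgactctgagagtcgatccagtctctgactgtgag
Ifit3: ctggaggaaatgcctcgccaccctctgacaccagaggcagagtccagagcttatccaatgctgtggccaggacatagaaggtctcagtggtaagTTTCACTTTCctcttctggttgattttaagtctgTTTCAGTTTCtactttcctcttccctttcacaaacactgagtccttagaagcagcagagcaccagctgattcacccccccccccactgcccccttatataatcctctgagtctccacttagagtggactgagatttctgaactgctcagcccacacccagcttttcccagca
Ifit3b: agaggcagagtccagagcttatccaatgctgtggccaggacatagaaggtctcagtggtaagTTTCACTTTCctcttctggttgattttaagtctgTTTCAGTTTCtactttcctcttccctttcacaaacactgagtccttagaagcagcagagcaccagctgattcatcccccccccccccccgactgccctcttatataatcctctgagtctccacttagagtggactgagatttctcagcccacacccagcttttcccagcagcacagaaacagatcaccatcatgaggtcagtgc
The Irf1 match begins at base -90 from the transcription start of the promoter shown. The other Irf1 promoter, at chr11:53770223-53770522 on the plus strand, held 0 matches to either motif. The 3 matches in Isg15 begin at bases -78, -72 and -66 and overlap, so that GAAA recurs with NN between each copy and the next. In Ifit3 the matches begin at bases -156 and -122, and in Ifit3b at -188 and -154, 34 bases apart in both, within a run of 169 bases that the 2 promoters share letter for letter. The last bases of the Ifit3b window were not found in a GENCODE transcript of the gene, so its positions rest on the RefSeq start alone.

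All libraries were deep enough to read most members, with 18359421 to 20144181 counts with IGF-1 and 16944315 to 17365697 counts in the controls. IGF-1 replicate 5 stood apart: counts of its pairs with replicates 3 and 4 gave a chi-square of 13.4 and 13.5 per degree of freedom, against 2.33 between replicates 3 and 4 and 2.29 between the controls. Log2 CPM (CPM are counts over the library total after edgeR's TMM scaling, times 1e+06) relative to the controls also rose with transcript length in replicate 5, by 0.055 per doubling of length, against 0.0049 and 0.011 in replicates 3 and 4. Log2 changes of the members are therefore also given without replicate 5. Markers of the labelled cells were high in every library, with the summed level of Pdgfra, Cspg4, Olig2, Sox10 and Ptprz1 at 3046 to 3527 CPM with IGF-1 and 2898 to 3012 CPM in the controls. The summed level of 7 microglial markers was 4.06 to 4.41 CPM with IGF-1 and 3.75 to 4.66 CPM in the controls, with 0 to 2 counts of Tyrobp, 1 to 7 of Ptprc and 46 to 69 of P2ry12 per library, the last being most of the sum. That of 7 neuronal markers was 6.94 to 13.3 and 6.29 to 7.49 CPM, highest in IGF-1 replicate 5. Syt1 was most of this sum and had 232 counts in replicate 5 against 81 to 105 elsewhere. Snap25 was at 1.03 CPM in replicate 5 and 0.52 to 0.83 CPM elsewhere, and Gad2 at 0.73 and 0.53 to 0.66 CPM. Rbfox3 had 0 to 1 counts in every library, and Stmn2, Slc17a6 and Eomes 0 to 6, none of them highest in replicate 5. The part of the neuronal markers in the results was not tested.

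The comparison asks which of these genes differ in co-cultured glioma cells after IGF-1. Of the 36 members 35 passed the filter on low counts. With all 5 libraries 1 member was lower, Irf1, and 0 were higher by edgeR's quasi-likelihood test at an adjusted p under 0.05, where 1.02% of 15919 genes were called (0.339% lower, 0.685% higher). At an unadjusted p under 0.05, 3 members were lower (Irf1, Ifit2 and Isg15) and 0 higher, where 5.57% of all genes were lower and 7.1% higher. DESeq2 and limma-voom each called the same gene, Irf1, and no other member. Of the 15919 genes DESeq2 called 191 higher and 89 lower, and limma-voom 83 higher and 49 lower. DESeq2 gave no adjusted p for Oas1a, Cxcl10, Psmb8 and Psmb9. The log2 change was below 0 in 29 of 35 tested members and in 51.7% of all genes, and its median was -0.06 over members and -0.01 over all genes. Without IGF-1 replicate 5, 4 members were lower (Irf1, Ifit2, Mx1 and Mx2) and 0 higher, where 9.14% of 15573 genes were called (3.65% lower, 5.49% higher). Unadjusted, 15 members were then lower and 0 higher, where 9.64% of genes were lower and 11.6% higher, and the median was -0.14. With either control or IGF-1 replicate 3 or 4 left out, 0 members passed by edgeR, with 2, 2, 3 and 5 lower and 0, 0, 0 and 1 higher before adjustment. Over all genes these 4 fits called 0, 0, 29 and 35 higher and 2, 2, 9 and 18 lower, and before adjustment 2.82%, 2.45%, 5.09% and 4.95% of genes were lower and 4.07%, 3.28%, 6.52% and 6.46% higher.

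**Figure D1:**
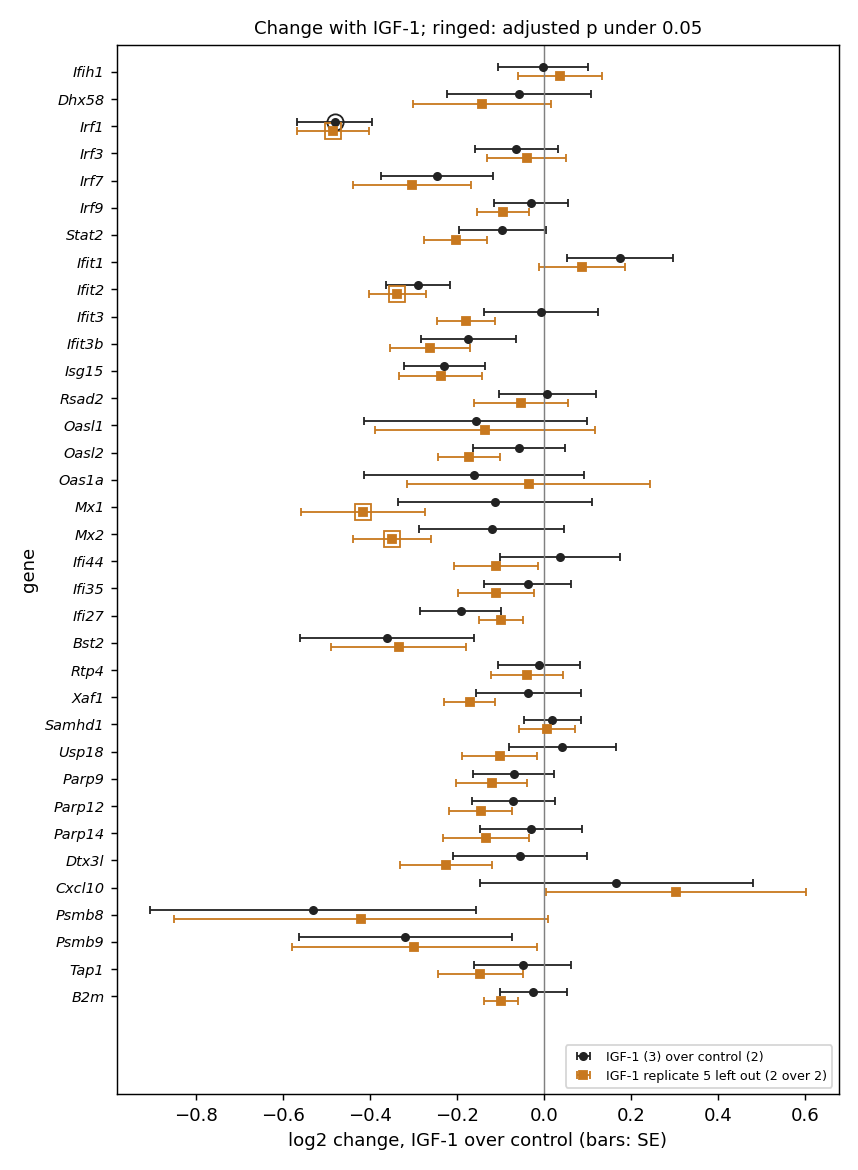
Log2 change of IGF-1 over control for the 35 tested members, with its SE as bars, in all libraries (black circles) and with IGF-1 replicate 5 left out (orange squares). Ringed points have an adjusted p under 0.05 by edgeR's quasi-likelihood test: Irf1 in the first set, and Irf1, Ifit2, Mx1 and Mx2 in the second.

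The member that passed with all libraries was a transcription factor gene. Irf1, the interferon regulatory factor that activates antiviral and antigen processing genes, was at 27.5, 31.7 and 29.9 CPM in IGF-1 replicates 3, 4 and 5, against 41.1 and 41.8 CPM in the controls. Every IGF-1 library lay below both controls, replicate 5 among them. The mean was 29.7 ± 2.06 CPM with IGF-1 (SD, n = 3) and 41.5 ± 0.45 CPM in the controls (SD, n = 2), and the gene fell by 0.48 on the log2 scale (SE 0.09, adjusted p = 0.0344 by edgeR). In RNA of many cells, fewer cells with a transcript and less of it per cell cannot be told apart. The log2 change lay between -0.53 and -0.43 in the 12 alternative analyses, and its adjusted p between 6.15e-06 and 0.51. The call was kept without IGF-1 replicate 5 (-0.49, adjusted p = 6.15e-06 by edgeR). It was lost without control replicate 1 (adjusted p = 0.466 by edgeR), control replicate 2 (0.51), IGF-1 replicate 3 (0.133) or IGF-1 replicate 4 (0.0708).

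The other 4 factors did not pass in any of these sets. Irf9, the DNA-binding subunit of the interferon complex, was at 77.0, 66.9 and 81.5 CPM in IGF-1 replicates 3, 4 and 5 and at 76.9 and 76.5 CPM in the controls. Its IGF-1 values lay on either side of the controls (log2 -0.03, SE 0.09, and -0.09 without replicate 5). Stat2, the activating subunit, was at 42.4, 42.9 and 52.4 CPM with IGF-1, against 49.9 and 48.3 CPM in the controls. Replicates 3 and 4 lay below the controls and replicate 5 above them, so that the log2 change was -0.10 with all libraries and -0.20 without replicate 5 (adjusted p = 0.73 and 0.0625 by edgeR). Irf7, which amplifies interferon production, was at 9.86 ± 0.692 CPM with IGF-1 (SD, n = 3) and 11.7 ± 0.681 CPM in the controls (SD, n = 2), with no overlap but an adjusted p of 0.462 by edgeR, and its log2 change was -0.25 with all libraries and -0.30 without replicate 5. Irf3, the factor that sensors activate directly, had a log2 change of -0.06, and of -0.04 without replicate 5.

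**Figure D2:**
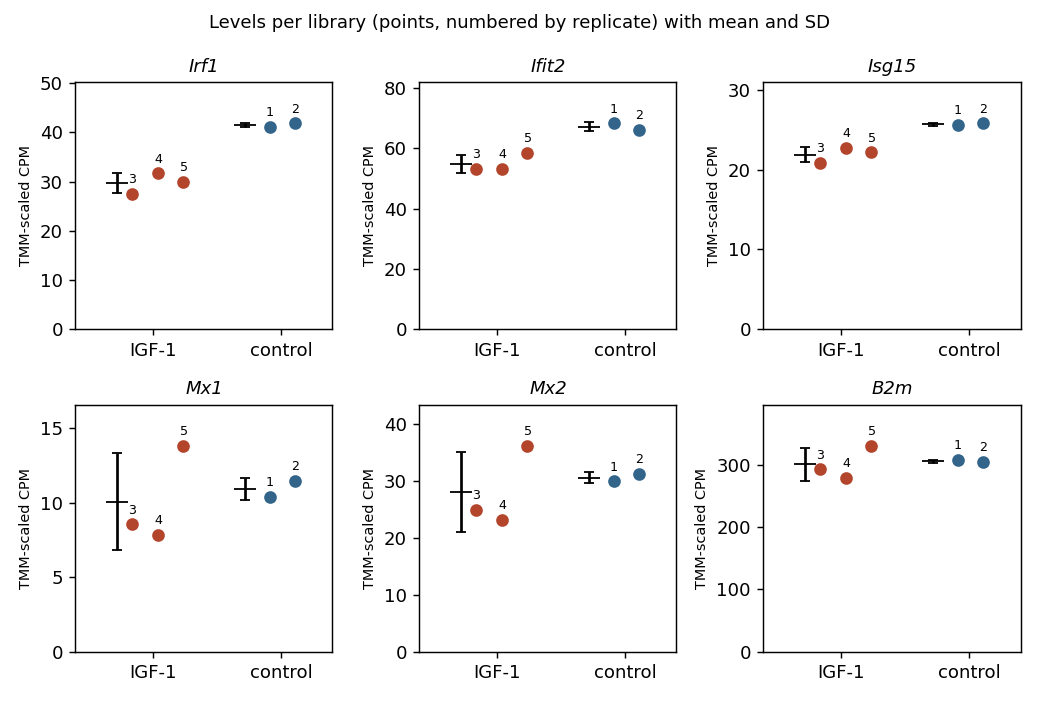
TMM-scaled CPM of 6 members in each library, with IGF-1 replicates 3 to 5 in red, control replicates 1 and 2 in blue, and the mean and SD of each group in black. For Irf1, Ifit2 and Isg15 all IGF-1 libraries lie below both controls, and for Mx1, Mx2 and B2m replicates 3 and 4 lie below the controls and replicate 5 above them.

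Among 18 antiviral effectors 0 passed with all libraries by edgeR, DESeq2 or limma-voom, with 2 lower and 0 higher when p was not adjusted. Ifit2, of the IFIT family of proteins that bind foreign RNA and stop its translation, was at 53.3, 53.0 and 58.4 CPM in IGF-1 replicates 3, 4 and 5, against 68.2 and 66.0 CPM in the controls. The groups did not overlap, and the log2 change was -0.29 (SE 0.07, adjusted p = 0.119 by edgeR). Without replicate 5 it was -0.34 (SE 0.06, adjusted p = 6.91e-05). Isg15, a ubiquitin-like protein that is joined to other proteins in interferon-treated cells, was at 20.8, 22.7 and 22.2 CPM with IGF-1, against 25.6 and 25.8 CPM in the controls. Here too every IGF-1 library lay below both controls (log2 -0.23, SE 0.09, adjusted p = 0.346 by edgeR, and -0.24 with 0.112 without replicate 5).

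Mx1 and Mx2, genes of dynamin-like GTPases, differed among the IGF-1 libraries. Mx1 was at 8.54, 7.84 and 13.8 CPM in IGF-1 replicates 3, 4 and 5, against 10.4 and 11.4 CPM in the controls. Mx2 was at 25.0, 23.1 and 36.2 CPM with IGF-1, against 30.0 and 31.3 CPM in the controls. In each gene replicates 3 and 4 lay below both controls and replicate 5 lay above them. With all libraries the log2 change was -0.11 (SE 0.22) for Mx1 and -0.12 (SE 0.17) for Mx2, and neither passed. Without replicate 5, Mx1 fell by 0.42 (SE 0.14, adjusted p = 0.04996 by edgeR) and Mx2 by 0.35 (SE 0.09, adjusted p = 0.00508). The call of Mx1 is at the threshold, and with IGF-1 replicate 4 left out the log2 changes were 0.04 and 0.003, above 0.

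Other members of the IFIT family did not share one pattern. Ifit1, which binds capped viral RNA, was at 25.8, 21.1 and 27.7 CPM in IGF-1 replicates 3, 4 and 5, against 21.9 and 22.2 CPM in the controls, and its log2 change of 0.17 was the highest of the 35 tested members with all 5 libraries, with an adjusted p of 0.598 by edgeR. Without replicate 5 it was 0.09, under the 0.30 of Cxcl10. Ifit3 and Ifit3b had log2 changes of -0.007 and -0.17, and of -0.18 and -0.26 without replicate 5 (adjusted p = 0.0805 and 0.0577 by edgeR). Of the stretches of 50 bases in the Ifit3 transcripts 51.2% also occur in Ifit3b, and of those in Ifit3b 44.5% occur in Ifit3, so their counts may hold shared reads. Oas1a shares 56.9% of such stretches with its neighbour Oas1g, and Mx1 and Mx2 share 4.6% and 6.71% of theirs.

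Ifi27 and Xaf1 had the largest CPM of the effectors, on a scale not corrected for transcript length. Ifi27, a mitochondrial protein gene, was at 102.3, 102.1 and 83.2 CPM in IGF-1 replicates 3, 4 and 5, against 105.7 and 113.2 CPM in the controls. All IGF-1 values lay below the controls, replicate 5 lowest, with a log2 change of -0.19 (SE 0.09, adjusted p = 0.429 by edgeR). It was -0.10 without replicate 5 and -0.12 with an offset for transcript length. Xaf1, which opposes the apoptosis inhibitor XIAP, was at 92.5, 76.2 and 108.4 CPM with IGF-1, against 97.6 and 92.0 CPM in the controls, with replicate 5 above the controls (log2 -0.04, and -0.17 without replicate 5, adjusted p = 0.926 and 0.0503 by edgeR). Samhd1, which breaks down the nucleotides that retroviruses need, was at 60.3 ± 0.894 CPM with IGF-1 (SD, n = 3) and 59.5 ± 0.694 CPM in the controls (SD, n = 2). The remaining effectors were Bst2 (tetherin, -0.36), Oas1a (-0.16), Oasl1 (-0.16), Oasl2 (-0.06), Ifi35 (-0.04), Rtp4 (-0.01), Rsad2 (viperin, 0.008) and Ifi44 (0.04) on the log2 scale, with adjusted p values of 0.492 to 0.985 by edgeR. Without replicate 5 they were at -0.33 (Bst2), -0.04 (Oas1a), -0.13 (Oasl1), -0.17 (Oasl2), -0.11 (Ifi35), -0.04 (Rtp4), -0.05 (Rsad2) and -0.11 (Ifi44), and Samhd1 was at 0.02 with all libraries and 0.007 without it. Bst2 varied within the IGF-1 group, at 6.11, 10.2 and 7.73 CPM, against 11.2 and 9.38 CPM in the controls.

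The RNA sensors did not differ beyond their spread. Ifih1, the gene of MDA5, was at 25.4, 23.1 and 22.4 CPM in IGF-1 replicates 3, 4 and 5, against 22.3 and 25.0 CPM in the controls. Dhx58, the gene of the MDA5 cofactor LGP2, was at 7.05, 7.84 and 8.76 CPM with IGF-1, against 9.23 and 7.20 CPM in the controls. In both genes the controls spanned most of the IGF-1 values, and the log2 changes were -0.002 (SE 0.10) and -0.06 (SE 0.17), with adjusted p values of 0.995 and 0.912 by edgeR. Without replicate 5 they were 0.04 and -0.14.

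Regulators that act through ubiquitin-like and ADP-ribose marks gave 0 calls by edgeR, DESeq2 and limma-voom, and 0 at an unadjusted p under 0.05, among 5 tested. Parp12, an ADP-ribosyltransferase, was at 46.7, 46.6 and 54.0 CPM in IGF-1 replicates 3, 4 and 5, against 55.3 and 47.9 CPM in the controls. Parp9, the partner of the ubiquitin ligase DTX3L, was at 36.4, 31.7 and 37.5 CPM with IGF-1, against 37.2 and 36.8 CPM in the controls. The log2 changes of Parp12 and Parp9 were -0.07 each, that of Parp14 was -0.03 and that of Dtx3l -0.05. Without replicate 5 they were -0.15 for Parp12, -0.12 for Parp9, -0.13 for Parp14 and -0.23 for Dtx3l. Usp18, the protease that removes ISG15 and restrains the interferon receptor, had a log2 change of 0.04, and of -0.10 without replicate 5. In replicates 3 and 4 each of these 5 genes lay below both controls, and replicate 5 lay above replicates 3 and 4 in each of them. Trim25, a ubiquitin ligase that acts on the sensor RIG-I, had 2, 10 and 8 counts with IGF-1 and 5 and 2 counts in the controls and was too low to test.

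Cxcl10, a chemokine that draws T cells, was low, at 1.93, 3.39 and 1.96 CPM in IGF-1 replicates 3, 4 and 5 and 2.25 and 2.07 CPM in the controls, or 35 to 64 counts per library. Replicate 4 was the highest and the other IGF-1 libraries were below the controls (log2 0.17, SE 0.31, adjusted p = 0.858 by edgeR, and 0.30 without replicate 5).

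Of 4 antigen processing genes 0 were called by edgeR, DESeq2 or limma-voom, or passed at an unadjusted p under 0.05. B2m, the light chain of MHC class I, was at 292.5, 278.8 and 330.4 CPM in IGF-1 replicates 3, 4 and 5, against 307.4 and 304.3 CPM in the controls, with replicates 3 and 4 below the controls and replicate 5 above them. Its log2 change was -0.02 (SE 0.08, adjusted p = 0.922 by edgeR), and -0.10 (SE 0.04, adjusted p = 0.105) without replicate 5. Tap1, a subunit of the transporter that carries peptides into the endoplasmic reticulum, followed the same order, at 21.5, 21.3 and 25.8 CPM with IGF-1 and 24.2 and 23.2 CPM in the controls (log2 -0.05, adjusted p = 0.883 by edgeR, and -0.15 without replicate 5). The immunoproteasome subunit genes Psmb8 and Psmb9 were low, with 16 to 28 and 38 to 55 counts per library. Their log2 changes of -0.53 (SE 0.37) and -0.32 (SE 0.24) had adjusted p values of 0.601 and 0.631 by edgeR, and were -0.42 and -0.30 without replicate 5. Neither passed at these counts and with 2 controls.

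Across the set, IGF-1 replicate 5 differed from replicates 3 and 4. It held the highest level of all 5 libraries in 18 of 35 tested members (51.4%) and in 28.1% of all genes tested. In the companion lists described below this share was 61.5% for nucleic acid sensing and 41.2% for other interferon-stimulated genes. It was 36.4% for antigen presentation, 33.3% for interferon receptors and kinases and 0% for the constitutive proteasome. Replicates 3 and 4 both lay below both controls in 19 members (54.3%) and in 24.5% of all genes, and both lay above them in 0 members and in 23.8% of all genes. Relative to the mean of the controls the members had a median log2 difference of -0.14, -0.15 and 0.07 in replicates 3, 4 and 5, against medians of -0.002, -0.004 and -0.007 over all genes. The groups did not overlap in 6 members, all of them lower with IGF-1, which is 17.1% of those tested, where 33.1% of all genes did not overlap (16.9% lower, 16.2% higher). Besides Irf1, Irf7, Ifit2, Isg15 and Ifi27 this was Psmb9. The summed level of the 36 members was 1317, 1265 and 1473 CPM in IGF-1 replicates 3, 4 and 5, and 1431 and 1417 CPM in the controls. With an offset for transcript length in each library the median log2 change of the members was -0.06, as without it, and Irf1 was the one member called. Isg15 was then at -0.14 (unadjusted p = 0.194 by edgeR). Irf1 and Ifit2 were the members of the 35 lower before adjustment, where 5.8% of all genes were lower.

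**Figure D3:**
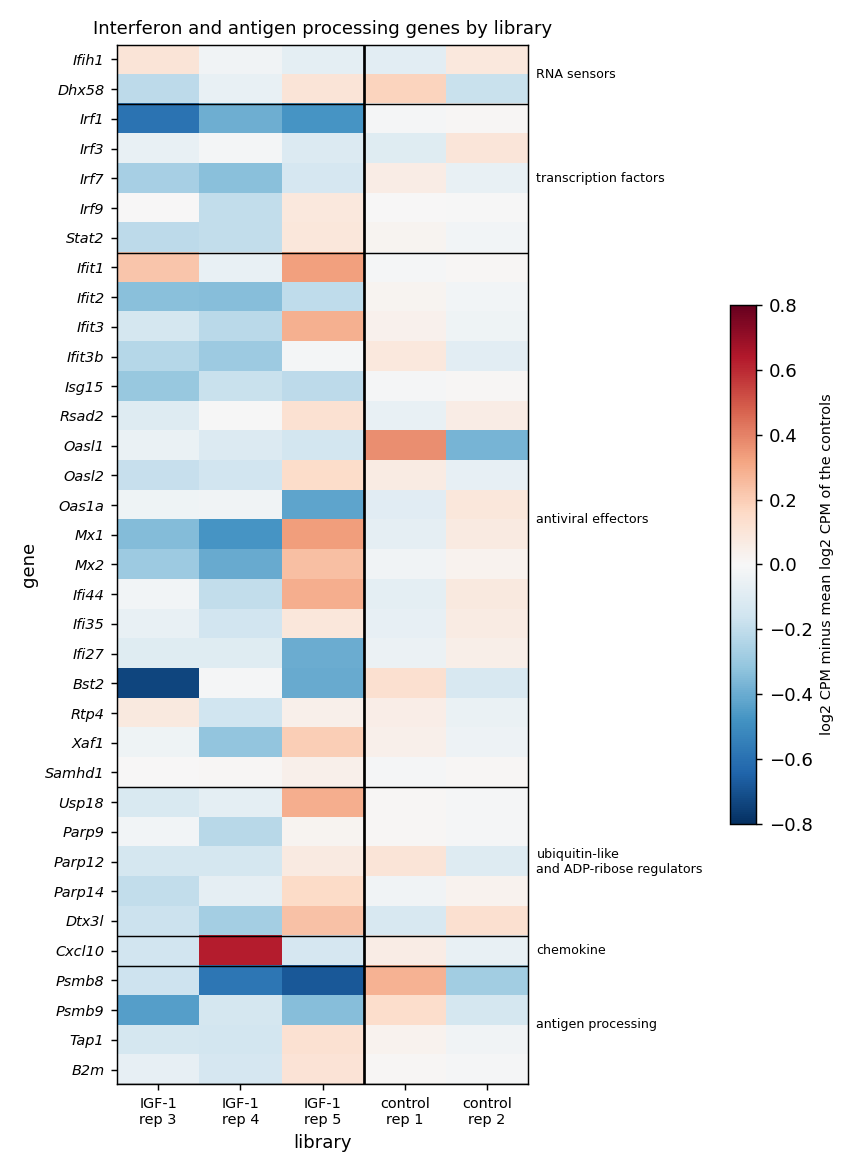
Log2 CPM of the 35 tested members in each library minus the mean of the controls (blue lower, red higher), in rows grouped by role, with the IGF-1 libraries left of the line and the controls right of it. Irf1, Ifit2 and Isg15 are blue in all IGF-1 libraries, while Mx1, Mx2 and Ifit3 are blue in replicates 3 and 4 and red in replicate 5.

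Other genes of the pathway were read from 5 companion lists. Of 15 tested genes of interferon receptors, kinases and their regulators 0 passed by edgeR, DESeq2 or limma-voom, with 1 lower and 0 higher unadjusted. Stat3 had a log2 change of 0.06 and Ptpn11 one of 0.03. The log2 change was above 0 in 6 of the 15 genes and below 0 in 9. Its median was -0.04, and -0.07 without replicate 5. The receptor chains Ifnar1 and Ifnar2 were singled out after their values were seen. Ifnar1 was at 72.9 to 77.1 CPM with IGF-1 and 72.0 to 73.8 CPM in the controls, and Ifnar2 at 14.3 to 17.8 and 15.5 to 16.6 CPM, with log2 changes of 0.06 and 0.04. The genes of the interferons themselves were not analysed here.

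In the list of nucleic acid sensing 13 genes were tested and 0 passed by edgeR, DESeq2 or limma-voom, with 3 higher and 0 lower unadjusted. Without replicate 5, Traf3, an adaptor of the sensor pathway, was higher (0.32, adjusted p = 3.27e-04 by edgeR) and Ddx60, a helicase gene, lower (-0.46, adjusted p = 0.0182). With all libraries they were at 0.33 and -0.21 (adjusted p = 0.089 and 0.69). Ddx58, the gene of RIG-I, and Traf6 had log2 changes of 0.03 and 0.21. Of the 13 genes 9 had a log2 change above 0 and 4 below 0, unlike the members. The median was 0.14, and 0.05 without replicate 5.

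Among 34 tested genes of the list of other interferon-stimulated genes edgeR and limma-voom called 0, with 3 higher and 2 lower unadjusted, and DESeq2 called 1 higher. That gene was Znfx1, an RNA helicase gene, at 35.2 ± 3.29 CPM with IGF-1 (SD, n = 3) and 25.8 ± 0.912 CPM in the controls (SD, n = 2), with a log2 change of 0.45 and an adjusted p of 0.0732 by edgeR. Without replicate 5, Znfx1 (0.37) and Tdrd7 (0.14) were higher and the guanylate-binding protein genes Gbp3 (-0.25) and Gbp7 (-0.32) lower, while Rnf213 was at -0.04. With all libraries Gbp3 was at 99.2 ± 0.955 CPM with IGF-1 (SD, n = 3) and 119 ± 3.53 CPM in the controls (SD, n = 2), with no overlap and an adjusted p of 0.0853 by edgeR. Over the 34 genes the log2 change was above 0 in 19 and below 0 in 15 with all libraries, unlike the members. Without replicate 5 it was above 0 in 10 and below 0 in 24, as it was below 0 in 31 of 35 members. Of all 15573 genes 8018 were then below 0. The median of the 34 genes was 0.02 with all libraries and -0.07 without replicate 5.

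Of 22 tested genes of antigen presentation 0 passed by edgeR, DESeq2 or limma-voom, with 1 higher and 1 lower unadjusted. Without replicate 5, Psme3, a proteasome activator subunit gene, was higher (0.26, adjusted p = 3.34e-06 by edgeR) and Psme2, a subunit gene of the interferon-induced activator, lower (-0.25, adjusted p = 0.0394). The chaperone genes Canx and Calr had log2 changes of -0.07 and -0.01 with all libraries. Of the 22 genes 8 had a log2 change above 0 and 14 below 0. Their median was -0.05, and -0.03 without replicate 5. Among 14 subunit genes of the constitutive proteasome 0 passed by any of the 3 tools, with 0 unadjusted. Their median log2 difference from the controls was -0.03, -0.01 and -0.38 in IGF-1 replicates 3, 4 and 5, the reverse of the order of the interferon members, with Psmb1 at -0.17 and Psmb4 at -0.11 over all libraries. The transcripts of these 14 genes are shorter, with a median length of 1162.5 bases against 2412 for the members. Over all tested genes with a known length it was 2923 bases, so the members too are shorter than most. The part of length in these shifts was not tested. The median log2 change of the 14 proteasome genes was -0.13 with all libraries, and -0.07 with the offset for transcript length.

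**Figure D4:**
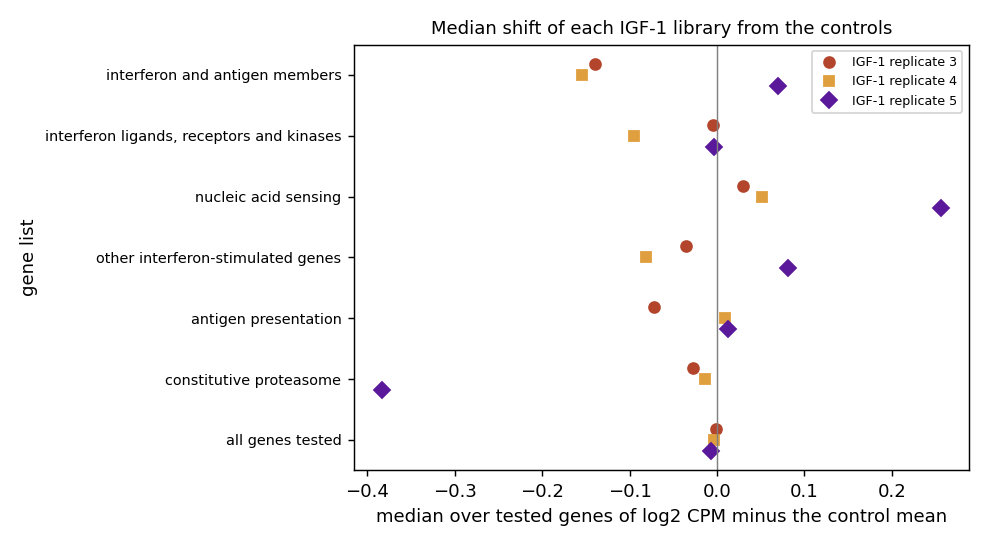
Median over the tested genes of each list of log2 CPM minus the mean of the controls, for IGF-1 replicates 3, 4 and 5. The interferon and antigen processing members lie at -0.14, -0.15 and 0.07, and the other interferon-stimulated genes at -0.04, -0.08 and 0.08. The constitutive proteasome lies at -0.03, -0.01 and -0.38, and all genes tested close to 0.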

How the data were processed

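Polyadenylated RNA of sorted glioma cells was sequenced in 5 libraries. The values deposited by the authors are raw read counts by gene symbol, 1 table per library. The submitters' processing notes name the build GRCm39 and, with no roles or settings, DESeq2 1.28.1, featureCounts 2.0.1, STAR 2.7.9a and cutadapt 3.4. The annotation, and whether counting used strand or multiply mapped reads, are not given in the sources used here, so reads of paralogs and overlapping genes can be shared.

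The analysis used edgeR 4.0.16 in R 4.3.3. Genes were filtered with filterByExpr (minimum count 10, minimum total 15), scaled with TMM factors and compared between 3 IGF-1 and 2 control libraries by the two-sided quasi-likelihood F-test. Benjamini-Hochberg adjustment covered all 15919 genes tested, and an adjusted p under 0.05 was called. The SE is the size of the log2 change divided by the square root of F. Differences of single libraries use log2(CPM + 0.1), and the slopes on transcript length use a larger added constant. Alternatives were RLE factors, total counts, no filter, DESeq2 1.42.0 and limma-voom (limma 3.58.1) on the filtered genes, and each library left out. A length offset and sample quality weights were added after seeing the data. A fit with 1 control assumes that it varies as the IGF-1 libraries do. The procedure was tested on simulated counts with the same dispersion for every gene and library. They held no library that stands apart as IGF-1 replicate 5 does, so they do not show how the test behaves with such a library. Transcript lengths and shared stretches came from GENCODE transcripts of another build (GRCm38), matched by symbol.

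The members and lists were chosen with earlier results of these data known. Values per library are given for members with an unadjusted p under 0.05, for members called without IGF-1 replicate 5, and for the 2 of each role class with the largest CPM. Companion genes are named when called in either of these fits or when among the 2 of their list with the largest CPM, apart from those said to be chosen afterwards, and Irf7, Ifit1 and Bst2, whose values are given on the same ground. The gene of RIG-I was found under Ddx58. Some genes of the companion lists are not reported here.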

Additional observations from a re-analysis of the deposited data

How the results depend on the processing

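Over all genes 109 were higher and 54 lower with IGF-1. Without a filter on low counts these were 385 and 221, with DESeq2 191 and 89, with a length offset 164 and 89, and with sample quality weights 480 and 331. Leaving out 1 library gave 0 to 855 higher and 2 to 569 lower genes, the highest without IGF-1 replicate 5. Of the members 1 was lower, 2 with sample quality weights (Irf1 and Ifit2) and 0 to 4 with 1 library left out, and 0 were higher under every alternative run. The cause of these shifts was not tested. The members' median log2 change, -0.06, lay between -0.14 and -0.01 under the 12 alternatives. For the 16 members that the rule above selects, 184 of 192 values kept their side of the threshold. Of the rest 4 of Irf1 lost it, and 4 of Ifit2, Mx1 and Mx2 passed it. Ifit1 and Bst2, also given per library, were not counted. Precision is limited by the 2 controls and, for Psmb8, Psmb9 and Cxcl10, by 16 to 64 counts per library. No paired analysis was possible because the replicate numbers 1 to 5 are not shared between the groups.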
